A study of Homo sapiens with 26 samples.

Results

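Fatty acid synthesis and desaturation was described through 10 enzymes chosen by name: ACLY, ACSS2, ACACA, ACACB, FASN, SCD, ELOVL6, FADS1, FADS2 and ACSL3. These and the other gene lists were chosen with earlier results of these data known. Counts of list genes beside shares of all genes are therefore a description and no independent test. The table held 8 of them among 17687 named genes, each with 1 probe set, and FADS1 and ACSL3 were not analysed here. The 26 single-colour microarrays held RNA of 3 established human lung cancer cell lines: NCI-H1975 (lung adenocarcinoma), A549 (lung carcinoma) and NCI-H1299 (lung carcinoma). Cells received either 12.8 µM Omomyc, a small protein made from the part of MYC that pairs with MAX, which interferes with MYC at its binding sites, or phosphate-buffered saline (PBS) as vehicle. H1975 had 5 Omomyc and 4 PBS arrays, A549 had 3 Omomyc and 4 PBS arrays, and H1299 had 5 of each. All groups grew in RPMI1640 with glutamine and 10% FBS, were plated and left overnight before treatment, with an exposure time that the sources do not give. Serum is itself a source of lipids, and no other protein was added as a control, so an effect of Omomyc and of any added protein cannot be told apart. Each array holds RNA of a whole culture, so a change in every cell and a change in a share of the cells cannot be told apart either.

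Cells build fatty acids from cytosolic acetyl-CoA, which ATP citrate lyase (ACLY) makes from citrate and acetyl-CoA synthetase 2 (ACSS2) makes from acetate. Acetyl-CoA carboxylases (ACACA, and ACACB at the mitochondrial surface) turn it into malonyl-CoA, fatty acid synthase (FASN) joins the units to palmitate, ELOVL6 elongates palmitate, and the desaturases SCD and FADS2 introduce double bonds. The sterol regulatory element-binding proteins (SREBPs) activate both fatty acid and cholesterol synthesis genes, SREBF1 products mainly fatty acid and SREBF2 products mainly cholesterol synthesis. The comparisons ask whether the fatty acid genes moved with the sterol genes when Omomyc was added, in each line.

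Promoters of the genes that carry the results are shown first, from RefSeq on GRCh38.p14, as the 250 bases before and the 50 bases from the first-listed start, written in the direction of the gene. Of the 8 genes, ACACA and ELOVL6 fell most in H1975, ACSS2 rose most in H1299, and ACACB passed the test in H1975 at values near background. Capitals mark matches, on either strand, to a GC box (GGGCGG or its complement) or a CCAAT box (CCAAT or its complement). The windows are chr17:37406787-37407086 (minus strand) for ACACA, chr4:110198566-110198865 (minus strand) for ELOVL6, chr20:34874739-34875038 (plus strand) for ACSS2 and chr12:109116337-109116636 (plus strand) for ACACB.
ACACA: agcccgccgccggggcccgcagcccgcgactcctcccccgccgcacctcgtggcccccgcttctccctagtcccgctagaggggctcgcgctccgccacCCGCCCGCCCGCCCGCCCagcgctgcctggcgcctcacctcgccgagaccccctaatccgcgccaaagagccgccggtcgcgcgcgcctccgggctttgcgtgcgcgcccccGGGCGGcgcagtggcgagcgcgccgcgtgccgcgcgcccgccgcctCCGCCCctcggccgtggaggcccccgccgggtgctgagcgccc
ELOVL6: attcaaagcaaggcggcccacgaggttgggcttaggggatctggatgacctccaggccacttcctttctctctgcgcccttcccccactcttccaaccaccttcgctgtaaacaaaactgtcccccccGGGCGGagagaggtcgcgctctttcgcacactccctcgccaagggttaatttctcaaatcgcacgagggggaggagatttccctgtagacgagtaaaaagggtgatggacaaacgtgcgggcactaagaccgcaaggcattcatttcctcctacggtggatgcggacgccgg
ACSS2: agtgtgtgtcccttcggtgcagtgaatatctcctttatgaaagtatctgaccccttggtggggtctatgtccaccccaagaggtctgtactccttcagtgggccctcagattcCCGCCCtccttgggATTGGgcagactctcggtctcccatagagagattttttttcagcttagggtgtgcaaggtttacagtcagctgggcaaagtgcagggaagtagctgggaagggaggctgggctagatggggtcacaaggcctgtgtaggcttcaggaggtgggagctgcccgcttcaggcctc
ACACB: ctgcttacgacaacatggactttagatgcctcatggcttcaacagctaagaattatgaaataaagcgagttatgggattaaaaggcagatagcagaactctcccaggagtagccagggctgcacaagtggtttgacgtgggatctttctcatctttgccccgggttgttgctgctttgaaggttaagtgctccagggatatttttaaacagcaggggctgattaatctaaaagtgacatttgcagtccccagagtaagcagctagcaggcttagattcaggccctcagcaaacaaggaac

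Of the 8 genes, 7 matched a promoter entry, all but FASN. The core of the sterol regulatory element (TCACNCCAC) matched 0 of these 7 windows, 0 of 15 windows of sterol synthesis genes and 1.15% of 27305 windows of all genes. An E-box of the type that MYC with MAX can bind (CACGTG) matched 0 of 7, 2 of 15 and 7.435% of all windows. The CCAAT box matched 3 of 7 windows of the fatty acid genes, 12 of 15 of the sterol genes and 35.7% of all. The GC box matched 5 of 7, 14 of 15 and 44.6% of all. ACACA had a GC-rich window with overlapping GC boxes, ELOVL6 had 1 GC box, ACSS2 had 1 of each box, and ACACB had neither. A match is a description of letters, and a missing match says only that those letters are not in that window.

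Values are deposited log2 expression values, and a difference of 1 is a doubling. Arrays were grouped into 3 sets of 9, 10 and 7 by the distribution of their values, with the number of sets fixed at 3. These sets are called normalization runs here, although no label names them and whether each was normalized apart is not stated. Every run held both treatments of each line, apart from A549, which lacked Omomyc arrays in run 3. The labels call arrays of a group biological replicas, and the p-values rest on the spread between them, which may be technical. The 23 probe sets for background had means between 2.34 and 6.69, with a median of 4.09. A value at or under 6.69, the highest of these means, was read as near background. The median level over all genes was 6.48, itself under this cut, so the label is broad and does not mean absence. AKR1B10, high in A549 cells, was at 17.10 ± 0.22 (SD, n = 4) in PBS-treated A549 cells and at 3.75 ± 0.27 and 3.00 ± 0.41 in PBS-treated H1975 and H1299 cells. The epithelial gene EPCAM averaged 8.99 and 9.54 in PBS-treated H1975 and A549 cells but was near background in all 10 H1299 arrays. Of 8 line markers, 3 were called as lower in H1975 cells, beside 6.28% of all genes. These were AKR1C1, KRT8 and AKR1B10, the last at values near background in all H1975 arrays. Their part in the results below was not tested. The leukocyte gene PTPRC and the endothelial gene PECAM1 were near background in all 26 arrays.

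**Figure D1:**
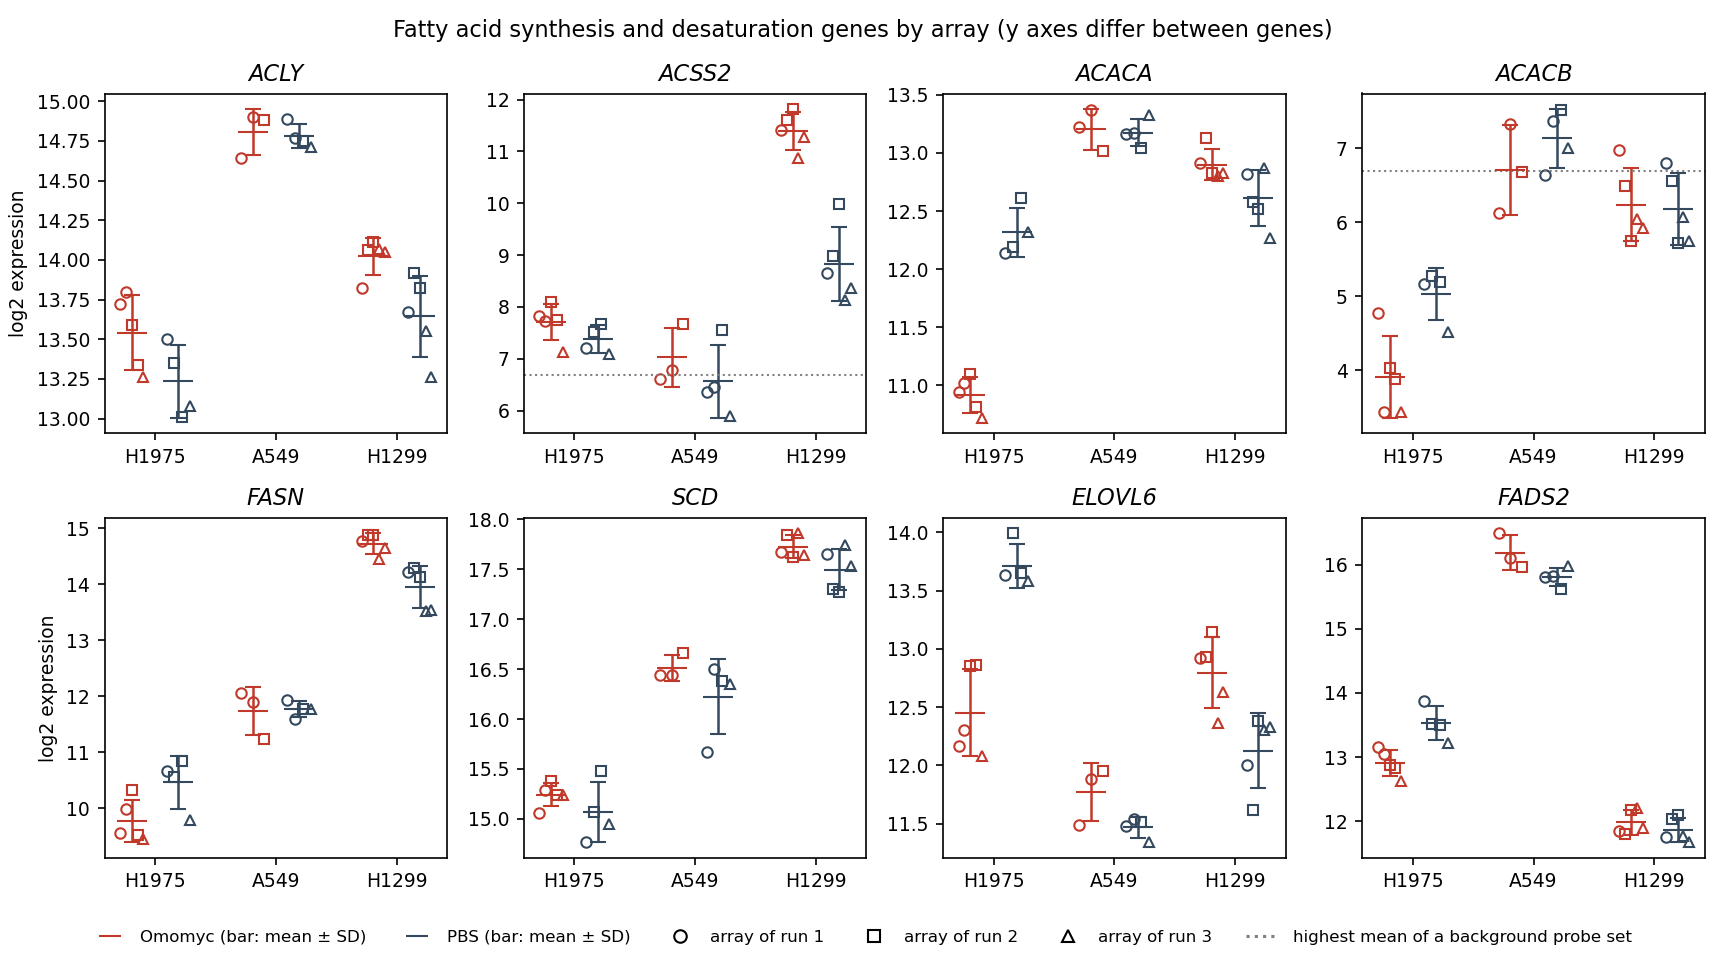
Log2 expression of the 8 genes in every array, with Omomyc left of PBS within each line, marker shape for the normalization run, and bars for the mean ± SD. In H1975 the Omomyc arrays of ACACA (10.72 to 11.10), ELOVL6 and FADS2 lie below all PBS arrays, while ACSS2 in H1299 reached 10.87 to 11.82, above all PBS arrays. The dotted line is at 6.69.

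Without Omomyc, the lines already differed in each of the 8 genes, and no line was highest throughout. The limma F test of the PBS level passed for all 8 genes, against 56.1% of all genes tested, so a difference in baseline was common. Among the genes of the first steps, ACLY averaged 13.24 ± 0.23 in H1975, 14.78 ± 0.07 in A549 and 13.64 ± 0.26 in H1299 (SD, n = 4, 4 and 5). The H1975 and H1299 arrays of ACLY overlapped, and their difference of -0.41 ± 0.17 did not pass the limma test (adjusted p = 0.0613). ACSS2 averaged 7.37 ± 0.27 in H1975, 6.57 ± 0.70 in A549 and 8.83 ± 0.72 in H1299, with 3 of 4 A549 arrays near background. H1299 was higher in ACSS2 than both other lines without overlap, whereas H1975 minus A549 (0.81 ± 0.34) missed the threshold (limma adjusted p = 0.0661).

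Of the carboxylases, ACACA averaged 12.32 ± 0.21 in H1975, 13.18 ± 0.12 in A549 and 12.61 ± 0.24 in H1299. A549 stood above both others, and H1975 and H1299 did not differ beyond their spread (-0.30 ± 0.17, limma adjusted p = 0.171). ACACB averaged 5.03 ± 0.35, 7.13 ± 0.40 and 6.18 ± 0.48 in H1975, A549 and H1299, so that in H1975 the gene was near background in every array. FASN, the synthase itself, averaged 10.46 ± 0.47 in H1975, 11.77 ± 0.14 in A549 and 13.95 ± 0.37 in H1299. These 3 sets of FASN arrays did not overlap, and H1975 was 11.2-fold lower than H1299 (-3.48 ± 0.24, limma adjusted p = 4.36e-13).

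SCD, which makes monounsaturated fatty acids, followed the same order, with 15.07 ± 0.30 in H1975, 16.23 ± 0.38 in A549 and 17.50 ± 0.21 in H1299. For ELOVL6 the order was another: 13.71 ± 0.19 in H1975, 11.47 ± 0.09 in A549 and 12.13 ± 0.32 in H1299. FADS2, the first desaturase of the polyunsaturated pathway, averaged 13.53 ± 0.27 in H1975, 15.81 ± 0.15 in A549 and 11.86 ± 0.19 in H1299. None of these 3 genes overlapped between any 2 lines, a trait not counted over all genes. The widest gap was the 15.5-fold higher FADS2 level of A549 over H1299 (3.95 ± 0.18, limma adjusted p = 3.57e-17). In that comparison 41.5% of all genes passed. H1975 thus entered the comparison with the lowest FASN and SCD values and the highest ELOVL6 values of the 3 lines.

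In H1975 cells, genes of carboxylation, elongation and FADS2 were lower with Omomyc, whereas the genes supplying acetyl-CoA and SCD did not pass the test. ACACA, ACACB, ELOVL6 and FADS2 fell, 4 of 8 genes, and 0 rose; without ACACB, whose H1975 values were all near background, 3 genes fell. For comparison, limma called 11.8% of all genes, 6.28% as lower and 5.57% as higher. None of the 8 was higher at an unadjusted p under 0.05 either. The median change of the 8 genes was -0.66, beside 0.00 over all genes.

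ACACA had values of 10.94, 11.02, 11.10, 10.81 and 10.72 in the Omomyc arrays of H1975, against 12.14, 12.19, 12.61 and 12.32 in the PBS arrays. Every Omomyc array was below every PBS array by over 1 unit. ACACA fell by 1.39 ± 0.17 on the log2 scale (SE; 2.63-fold lower, limma adjusted p = 1.10e-06), and the change was -1.15, -1.45 and -1.60 within runs 1, 2 and 3. ELOVL6 had 12.17, 12.30, 12.85, 12.86 and 12.08 with Omomyc, against 13.63, 13.99, 13.65 and 13.58 with PBS. All Omomyc arrays lay lower here too. ELOVL6 changed by -1.26 ± 0.21 (2.40-fold lower, limma adjusted p = 0.000103), with -1.39, -0.97 and -1.50 within runs 1, 2 and 3.

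FADS2 had 13.16, 13.04, 12.88, 12.83 and 12.63 in Omomyc-treated H1975 cells, against 13.87, 13.52, 13.50 and 13.22 in PBS-treated cells. The groups did not overlap, but the gap between them was small. The change was -0.62 ± 0.18 (1.53-fold lower, limma adjusted p = 0.0215), and within the runs it was -0.77, -0.65 and -0.58. It no longer passed without PBS replicate 1 (-0.50, adjusted p = 0.0977), without Omomyc replicate 5 (-0.55, adjusted p = 0.0586), with arrays centred on their medians (-0.51, adjusted p = 0.18) or in a fit on H1975 alone (adjusted p = 0.103). In all, 3 of 8 genes were lower without overlap between the H1975 groups, beside 5.35% of all genes.

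FASN had 9.55, 9.99, 10.32, 9.52 and 9.45 with Omomyc in H1975, against 10.66, 10.55, 10.85 and 9.78 with PBS. Omomyc replicate 3 lay above PBS replicate 4, and 3 of 5 Omomyc arrays were below all PBS arrays. The change of -0.70 ± 0.24 just missed the threshold (limma adjusted p = 0.0551). With the run as a block it was -0.72 (limma adjusted p = 0.00836), and the values within runs 1, 2 and 3 were -0.89, -0.78 and -0.34. Without PBS replicate 4 it was -0.92 (adjusted p = 0.0111), and without Omomyc replicate 3 it was -0.83 (adjusted p = 0.0207).

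ACACB, the carboxylase isoform that limits fatty acid entry into mitochondria, had 4.77, 3.43, 4.03, 3.88 and 3.43 with Omomyc and 5.16, 5.27, 5.19 and 4.51 with PBS in H1975. All 9 values were near background, so no fold is given. Omomyc replicate 1 overlapped PBS replicate 4. The limma adjusted p was 0.0143, and 0.0523 without PBS replicate 2. How far this reflects a change in ACACB RNA cannot be read at such values.

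The other H1975 genes gave small positive values that did not pass. ACLY, at 13.26 to 13.80 with Omomyc and 13.01 to 13.50 with PBS, changed by 0.30 ± 0.17 (95% interval -0.05 to 0.66, limma adjusted p = 0.331). ACSS2, at 7.14 to 8.09 with Omomyc and 7.10 to 7.68 with PBS, changed by 0.33 ± 0.33 (limma adjusted p = 0.667). SCD, at 15.06 to 15.38 with Omomyc and 14.77 to 15.48 with PBS, changed by 0.17 ± 0.19 (95% interval -0.21 to 0.55, limma adjusted p = 0.696). The upper bounds of the 95% intervals of ACACA and ELOVL6, at -1.05 and -0.83, lay below the lower bounds for ACLY and SCD.

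**Figure D2:**
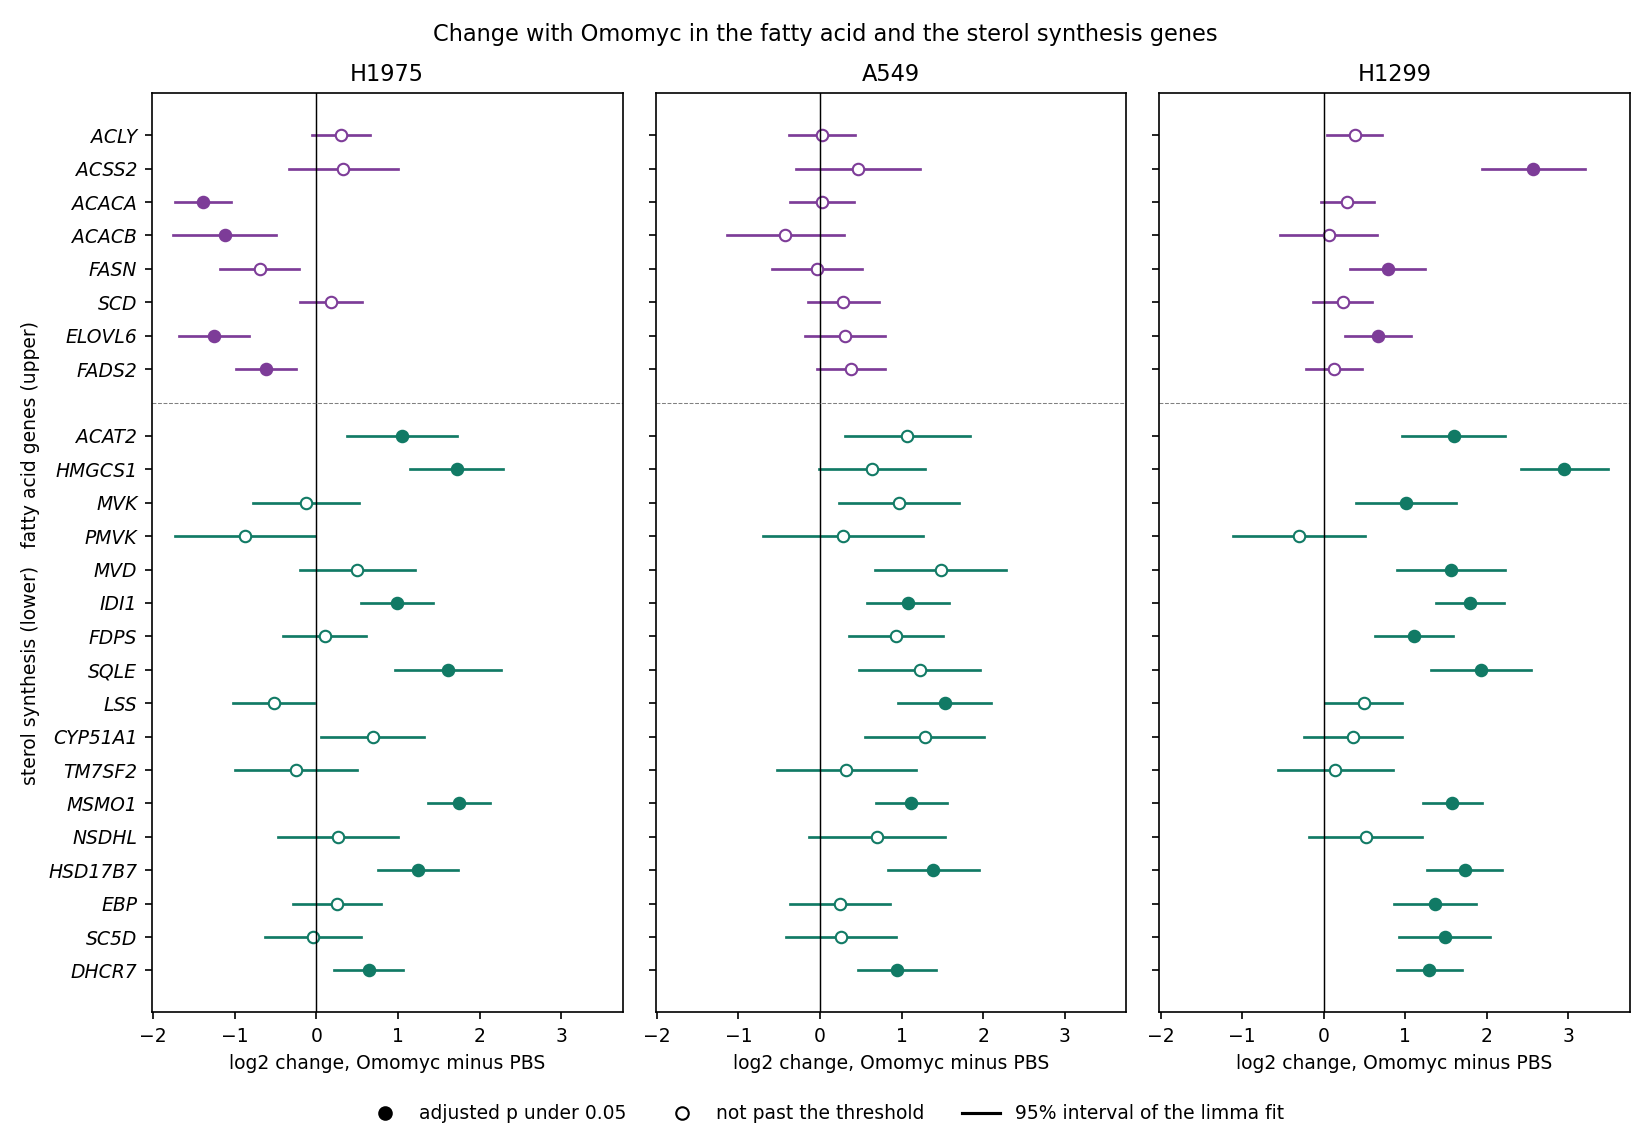
Log2 change, Omomyc minus PBS, of the 8 fatty acid genes (upper block) and 17 sterol synthesis genes (lower block) in the 3 lines, with 95% intervals of the limma fit and filled points for an adjusted p under 0.05. In H1975 the filled points of the upper block are below 0 (4 of 8, ACACB near background) and those of the lower block above 0 (7 of 17).

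In A549 cells none of the fatty acid genes passed the test, while sterol genes rose. limma called 0 of 8 genes in either direction, beside 1.19% of all genes (0.916% higher and 0.277% lower), and 0 of 8 had an unadjusted p under 0.05. The count was also 0 with every other setting tried. The median change of the 8 genes was 0.15, against 0.04 for all genes. Only 3 Omomyc arrays were available, and the intervals leave room for moderate changes. ACACA had 13.22, 13.37 and 13.02 with Omomyc, against 13.16, 13.17, 13.04 and 13.33 with PBS, a change of 0.03 with a 95% interval of -0.37 to 0.42. FASN had 12.06, 11.90 and 11.24 with Omomyc, against 11.94, 11.59, 11.78 and 11.78 with PBS (-0.04, 95% interval -0.59 to 0.52). Both genes overlapped between the groups.

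ELOVL6 had 11.49, 11.88 and 11.95 in Omomyc-treated A549 cells, against 11.48, 11.54, 11.51 and 11.34 in PBS-treated cells. The change of 0.30 ± 0.24 did not pass (limma adjusted p = 0.865). FADS2 had 16.49, 16.11 and 15.97 with Omomyc and 15.81, 15.83, 15.62 and 15.98 with PBS. That change was 0.38 ± 0.20 (limma adjusted p = 0.672), and 2 of 3 Omomyc arrays were above all PBS arrays. SCD changed by 0.28 ± 0.21, ACLY by 0.02 ± 0.20 and ACSS2 by 0.46 ± 0.37, and neither these nor ACACB passed. Of these, ACSS2 was near background in 1 of 3 Omomyc and 3 of 4 PBS arrays, and ACACB in 2 of 3 and 1 of 4.

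In H1299 cells 3 of the 8 genes were higher with Omomyc, ACSS2 by the most. ACSS2, FASN and ELOVL6 rose, and 0 fell, beside 8.87% of all genes called by limma, 4.35% as higher and 4.52% as lower. None was lower at an unadjusted p under 0.05. The median change was 0.33, against 0.00 for all genes. ACSS2, which recovers acetate as acetyl-CoA, had 11.42, 11.60, 11.82, 10.87 and 11.27 with Omomyc, against 8.66, 8.98, 9.98, 8.14 and 8.37 with PBS. The lowest Omomyc array stood well above the highest PBS array. The rise was 2.57 ± 0.31 (5.94-fold, limma adjusted p = 1.54e-06), and it was 2.76, 2.22 and 2.82 within runs 1, 2 and 3.

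FASN had 14.78, 14.88, 14.88, 14.45 and 14.65 in Omomyc-treated H1299 cells, against 14.22, 14.29, 14.14, 13.53 and 13.55 in PBS-treated cells. The groups did not overlap, and 2 of 8 genes were higher without overlap in this line, beside 3.91% of all genes. The change was 0.78 ± 0.22 (1.72-fold, limma adjusted p = 0.024), and within the runs it was 0.57, 0.67 and 1.01. ELOVL6 had 12.92, 12.93, 13.14, 12.36 and 12.63 with Omomyc, against 12.00, 11.62, 12.38, 12.30 and 12.33 with PBS. Omomyc replicate 4 fell within the PBS range. ELOVL6 changed by 0.67 ± 0.20 (1.59-fold, limma adjusted p = 0.029), with 0.93 and 1.03 in runs 1 and 2 but 0.18 in run 3.

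Both smaller rises were close to the threshold. FASN missed it without PBS replicate 4 or 5 or Omomyc replicate 1, 2 or 3 (0.68 to 0.77, adjusted p = 0.0514 to 0.0797). ELOVL6 missed it without PBS replicate 1 or 2 or Omomyc replicate 1, 2 or 3 (0.54 to 0.64, adjusted p = 0.0627 to 0.105), and in a fit on H1299 alone (adjusted p = 0.0789). Without Omomyc replicate 1, 2 or 3, ACSS2 alone of the 8 genes passed. The other genes did not pass. ACLY, at 13.82 to 14.11 with Omomyc and 13.26 to 13.92 with PBS, changed by 0.38 ± 0.16 (limma adjusted p = 0.181). ACACA changed by 0.29 ± 0.16 (95% interval -0.03 to 0.62), SCD by 0.23 ± 0.17 and FADS2 by 0.12 ± 0.17. ACACB, with 4 of 5 arrays of each group near background, did not pass either (adjusted p = 0.963).

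**Figure D3:**
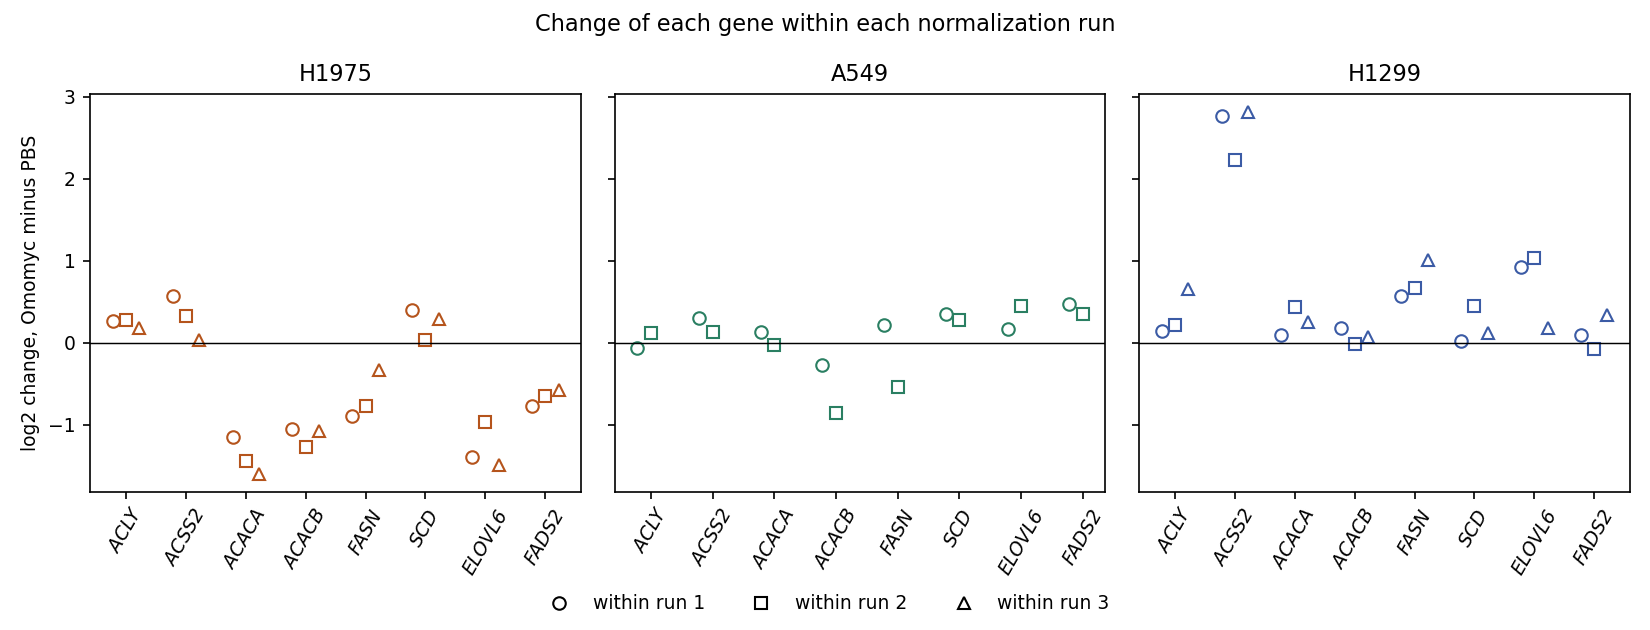
Log2 change, Omomyc minus PBS, of each gene within each normalization run, as differences of group means; A549 has no value in run 3. ACACA in H1975 is at -1.15, -1.45 and -1.60, and ACSS2 in H1299 is at 2.76, 2.22 and 2.82.

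The lines differed in how these genes changed. An F test across the 3 lines passed for 5 of 8 genes, beside 8.18% of all genes: ACACA (limma adjusted p = 2.38e-05), ELOVL6 (9.13e-05), ACSS2 (0.00163), FASN (0.011) and FADS2 (0.033). ACLY, SCD and ACACB did not pass (adjusted p = 0.728, 0.98 and 0.192). The FADS2 call was lost, leaving 4 genes, with arrays centred on their medians, with the replicate block, with that block and the run together, and without H1975 PBS replicate 1, 2 or 3, H1975 Omomyc replicate 4 or 5, A549 PBS replicate 3 or A549 Omomyc replicate 1. The pairwise contrasts below share arrays, since each line enters 2 of them. H1975 minus A549 passed for 3 of 8 genes, beside 4.62% of all genes, all 3 with the lower value in H1975. The difference in change was -1.42 ± 0.25 for ACACA (limma adjusted p = 0.000874), -1.56 ± 0.32 for ELOVL6 (adjusted p = 0.00297) and -0.99 ± 0.27 for FADS2 (adjusted p = 0.0311). With the replicate block and the run together, ELOVL6 (-1.39, limma adjusted p = 0.0661) and FADS2 (-1.09, adjusted p = 0.0795) missed the threshold. The FADS2 difference missed the threshold with 6 of the arrays left out in turn (H1975 PBS replicate 1 or 2, H1975 Omomyc replicate 5, A549 PBS replicate 3, A549 Omomyc replicate 1 or 2; -1.03 to -0.84, adjusted p = 0.0519 to 0.117).

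H1975 minus H1299 passed for 4 of 8 genes, beside 5.70% of all genes. These were ELOVL6 (-1.93 ± 0.29, limma adjusted p = 4.88e-05), ACACA (-1.69 ± 0.23, adjusted p = 1.36e-05), ACSS2 (-2.24 ± 0.45, adjusted p = 0.00181) and FASN (-1.48 ± 0.33, adjusted p = 0.00463). A549 minus H1299 passed for ACSS2 alone of the 8 (-2.11 ± 0.48, limma adjusted p = 0.0155), beside 2.47% of all genes, and not without A549 Omomyc replicate 1 (-1.90, adjusted p = 0.0653) or 2 (-1.99, adjusted p = 0.0531). With the run as a block, H1975 minus H1299 also passed for FADS2 (-0.76, adjusted p = 0.0282) and ACACB (adjusted p = 0.0297, values near background), where 11.7% of all genes passed, and A549 minus H1299 for FASN (-0.94, adjusted p = 0.0498), where 6.41% did. SCD gave nearly the same value in all 3 lines, and the 95% intervals of its pairwise differences were -0.69 to 0.47, -0.58 to 0.46 and -0.51 to 0.61 for H1975 minus A549, H1975 minus H1299 and A549 minus H1299.

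Set beside the sterol arm, the called fatty acid genes went the other way in H1975 and the same way in H1299. The sterol list held 17 measured genes of cholesterol synthesis and shares none with the 8. In H1975, 7 of 17 sterol genes rose and 0 fell by limma, beside 5.57% higher and 6.28% lower of all genes, with a median of 0.50. In the same arrays 4 of 8 fatty acid genes fell, ACACB among them near background. LSS, which closes the sterol ring, was at 9.77 to 10.57 with Omomyc and 10.44 to 10.91 with PBS, and its change of -0.53 ± 0.24 did not pass (limma adjusted p = 0.195). With the run as a block LSS was called as lower (-0.52, adjusted p = 0.034). The counts were then 8 higher and 1 lower, beside 9.37% and 9.85% of all genes. At an unadjusted p under 0.05 the sterol list had 8 higher and 2 lower genes. MSMO1, a sterol methyl oxidase, rose by 1.74 ± 0.19 (limma adjusted p = 1.56e-07). HMGCS1, which makes HMG-CoA, rose by 1.72 ± 0.28 (adjusted p = 7.40e-05), and HSD17B7 by 1.24 ± 0.24 (adjusted p = 0.000548). In A549, 5 of 17 sterol genes rose and 0 fell, beside 0.916% higher and 0.277% lower of all genes, with a median of 0.97. They were LSS (1.53 ± 0.28), MSMO1 (1.12 ± 0.21) and HSD17B7 (1.39 ± 0.27), and, named after their values were seen, IDI1 (1.08 ± 0.25) and DHCR7 (0.94 ± 0.24). The A549 count was 3 without PBS replicate 2 or 4 or Omomyc replicate 3. In H1299, 12 of 17 rose and 0 fell, beside 4.35% higher and 4.52% lower of all genes, with a median of 1.36. Those with the smallest p were HMGCS1 (2.95 ± 0.26), MSMO1 (1.57 ± 0.18) and IDI1 (1.80 ± 0.20).

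The mean over a list, taken per array relative to the PBS mean of the line, gives this array by array. For the 8 fatty acid genes it was -0.85 to -0.31 in Omomyc-treated and -0.27 to 0.16 in PBS-treated H1975 arrays, so that the groups did not overlap. For the 17 sterol genes it was 0.05 to 0.88 with Omomyc and -0.45 to 0.26 with PBS in H1975. These sterol ranges overlapped through Omomyc replicate 5 at 0.05, which shares run 3 with PBS replicate 4 at -0.45. In A549 the fatty acid mean was 0.02 to 0.22 with Omomyc and -0.12 to 0.15 with PBS, while the sterol mean was 0.77 to 1.12 and -0.35 to 0.29. In H1299 the fatty acid mean was 0.50 to 0.76 with Omomyc and -0.24 to 0.15 with PBS, and the sterol mean was 0.98 to 1.52 and -0.45 to 0.59. The fatty acid mean gives each of the 8 genes the same weight. In H1299 it thus includes the ACSS2 rise of 2.57, where the median change of the 8 genes was 0.33. In H1975 it includes ACACB, whose values were near background. The median change of the fatty acid genes in H1975 was -0.83, -0.72 and -0.46 within runs 1, 2 and 3, and that of the sterol genes was 0.26, 0.61 and 0.65.

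**Figure D4:**
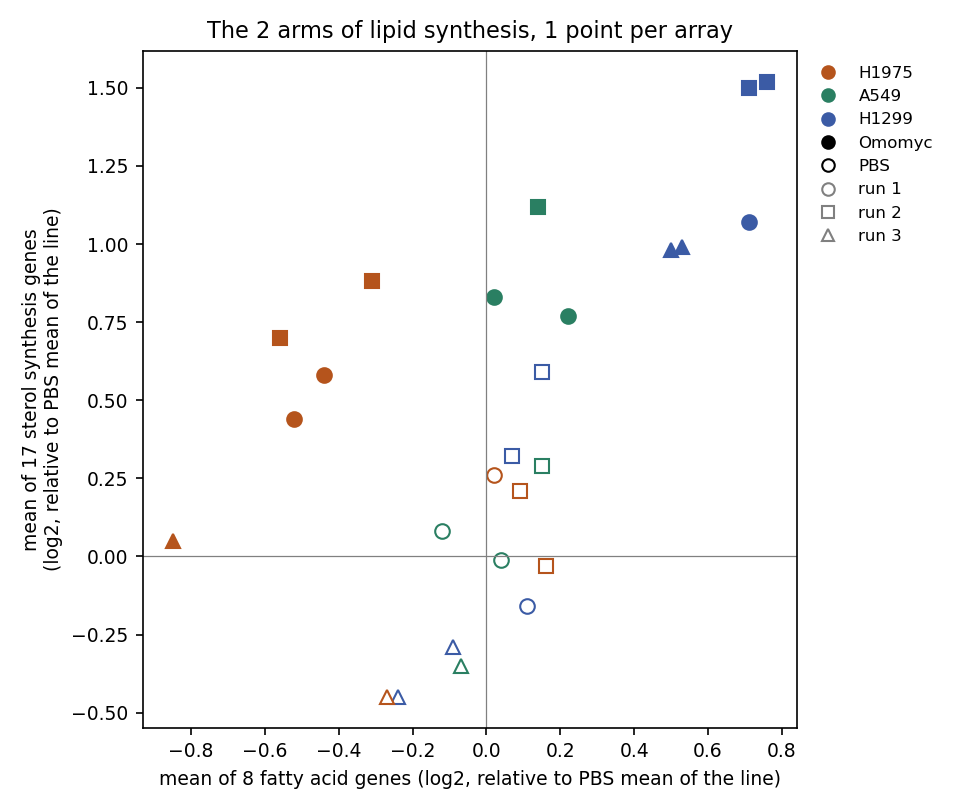
Mean of 17 sterol synthesis genes (y axis) against the mean of 8 fatty acid genes (x axis), log2 relative to the PBS mean of each line, 1 point per array, filled for Omomyc and open for PBS, with marker shape for the run. The H1975 Omomyc arrays lie left of 0 on the x axis (-0.85 to -0.31) and at 0.05 to 0.88 on the y axis, and the H1299 Omomyc arrays lie in the upper right. The fatty acid mean includes ACSS2, which rose by 2.57 in H1299, and ACACB, near background in H1975.

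Of the sterol genes, 3 of 17 passed the F test of a difference between lines, beside 8.18% of all genes: HMGCS1 (limma adjusted p = 0.00123), LSS (0.00158) and SC5D (0.0252). No test compares the 3 of 17 with the 5 of 8 above. Among genes of uptake and SREBP control, INSIG1, an SREBP target that retains SREBPs in the endoplasmic reticulum, had 11.78, 11.51, 10.38, 11.30 and 10.54 in Omomyc-treated H1975 cells, against 7.84, 8.51, 7.95 and 7.70 in PBS-treated cells. It rose by 3.10 ± 0.29 in H1975 (limma adjusted p = 1.80e-08) and by 1.99 ± 0.28 in H1299 (adjusted p = 1.60e-05), and changed by 0.68 ± 0.33 in A549 (adjusted p = 0.575). The rise of INSIG1 thus stood beside the fall of ACACA and ELOVL6 in the same H1975 arrays. STARD4, a sterol carrier, rose in A549 (1.24 ± 0.31, adjusted p = 0.0424) and H1299 (1.39 ± 0.26, adjusted p = 0.000566), and changed by 0.62 in H1975 (adjusted p = 0.163). MBTPS1, the first protease of SREBP cleavage, fell in H1975 by 0.64 ± 0.20 (limma adjusted p = 0.0312). In A549 it was not called, but its Omomyc arrays (12.67 to 12.88) lay above all PBS arrays (12.35 to 12.62), as for 5.79% of all genes. In H1299 the groups overlapped and it was not called. Its F test between lines did not pass (limma adjusted p = 0.102), though it did with the run as a block (0.0432).

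SREBF1, which encodes the SREBP most tied to fatty acid synthesis, had negative values in all 3 lines, none past the threshold. The change was -0.67 ± 0.27 in H1975 (limma adjusted p = 0.123), -0.58 ± 0.31 in A549 (adjusted p = 0.653) and -0.48 ± 0.26 in H1299 (adjusted p = 0.321). In H1975 the SREBF1 values were 12.28, 11.92, 11.82, 12.22 and 12.06 with Omomyc and 12.33, 12.58, 13.78 and 12.23 with PBS, so 1 PBS array stood high. SREBF2, which encodes the other SREBP, SCAP, its escort, and INSIG2 passed in none of the lines. In H1975, A549 and H1299 the change was -0.28, 0.09 and 0.24 for SREBF2, -0.44, 0.11 and 0.19 for SCAP, and 0.51, 0.44 and 0.46 for INSIG2. The PBS level of SREBF1 was lower in H1975 than in A549 (-1.96 ± 0.29, limma adjusted p = 1.79e-06) and H1299 (-2.53 ± 0.27, adjusted p = 6.97e-09), as FASN and SCD were.

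Relatives of the 8 enzymes also moved in H1975, where 1 of 16 rose and 4 fell, beside 5.57% higher and 6.28% lower of all genes. ACSL5, a long-chain acyl-CoA synthetase, fell by 1.93 ± 0.23 (limma adjusted p = 9.63e-07), HACD2 of the elongation cycle by 0.76 ± 0.21 (adjusted p = 0.0174) and ACSS1, the mitochondrial acetate enzyme, by 1.06 ± 0.29 (adjusted p = 0.0134, all 5 Omomyc arrays near background). SCD5, named after its values were seen, fell by 0.92 ± 0.28 (adjusted p = 0.028). ACSL4, which prefers arachidonate, rose by 0.92 ± 0.24 (adjusted p = 0.00885). In A549 limma called 0 of 16 of them, beside 1.19% of all genes, with 2 at an unadjusted p under 0.05. In H1299 the elongases ELOVL4 (1.24 ± 0.20), ELOVL7 (1.22 ± 0.29) and ELOVL5 (0.57 ± 0.15) rose and ELOVL2 fell (by 1.44 ± 0.27).

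Downstream, 3 of 14 genes of glycerolipid synthesis and storage rose in H1975 and 1 fell, beside 5.57% higher and 6.28% lower of all genes. PLIN2, which coats lipid droplets, rose by 1.83 ± 0.28 (limma adjusted p = 2.89e-05), with 11.85 ± 0.60 in Omomyc-treated cells and 10.01 ± 0.42 in PBS-treated cells (SD, n = 5 and 4). The acyltransferases AGPAT4 and DGAT2 rose by 1.72 ± 0.29 and 0.86 ± 0.27, and GPAT4 fell by 1.00 ± 0.21 (adjusted p = 0.00138). limma called 0 of these 14 in A549 and in H1299, beside 1.19% and 8.87% of all genes. At an unadjusted p under 0.05 the counts were 1 and 2. Of 19 genes of fatty acid oxidation, 3 fell and 0 rose in H1975, where 6.28% of all genes were lower. The count was 6 with the run as a block, where 9.85% of all genes were lower. The 3 were CPT1A, which carries fatty acids toward the mitochondrial matrix and is inhibited by malonyl-CoA (-1.60 ± 0.24, limma adjusted p = 3.27e-05), CPT2 (-0.95 ± 0.24, adjusted p = 0.0071) and ACADM (-0.92 ± 0.21, adjusted p = 0.0028). None of the 19 was higher at an unadjusted p under 0.05. In H1299 CPT1A rose instead (0.76 ± 0.23, adjusted p = 0.0344) and ECI1 (-1.31 ± 0.34) and ANGPTL4 (near background in 9 of 10 arrays) fell. In H1299 5 of the 19 fell with the run as a block, where 8.17% of all genes were lower. Without the block it was 2, where 4.52% of all genes were lower. The CPT1A change differed between the lines (F test, limma adjusted p = 4.36e-05).

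Genes of substrate supply and lipogenic regulation were called in 0 of 9 cases in H1975 and in A549, beside 11.8% and 1.19% of all genes. At an unadjusted p under 0.05 the counts were 0 and 1. In H1299 MID1IP1, which promotes carboxylase polymerisation, fell by 0.87 ± 0.21 (limma adjusted p = 0.00739). Of 5 targets of the liver X receptors, which sense oxysterols and induce SREBF1, 0 rose and 1 fell in H1975 (SMPDL3A, near background). The shares over all genes there were 5.57% higher and 6.28% lower. In A549 ABCG1 fell (adjusted p = 0.000286), with 2 of 3 Omomyc arrays and 0 of 4 PBS arrays near background. ABCA1 fell by 1.03 ± 0.24 there (adjusted p = 0.0207), with 1 of 3 Omomyc arrays near background. In H1299 SMPDL3A rose by 1.22 ± 0.24 (adjusted p = 0.00121) and ABCA1 was called as lower (adjusted p = 0.0241) with all 10 arrays near background.

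Pearson correlations between the 8 genes were taken over the 26 arrays after centring within line and run, so they include the treatment contrast, and are a description that adds no support to it. PBS replicate 4 of A549 was alone in its line and run, so after centring it adds nothing to them. ACACA correlated with ELOVL6 at 0.79, with FADS2 at 0.73, with ACACB at 0.70 and with FASN at 0.68. ACACB correlated with ELOVL6 at 0.46 and with FADS2 at 0.38. ACLY correlated with ACSS2 at 0.70 and with ACACA at -0.21. SCD stayed between -0.16 and 0.37 with the others. By the same measure the genes most like ACACA were BMP4 (0.94), SLITRK6 (0.93) and WDCP (0.93). Those most like ELOVL6 were CASTOR2 (0.90), DCAF6 (0.89) and TM4SF18 (0.88), and those most like ACSS2 were GBP2 (0.96), BTN3A2 (0.94) and ITGA10 (0.94). FASN was most like ANKH, MGAT4B and MBOAT1 (0.86 to 0.88) and FADS2 most like ALDH3B1, FECH and IFNAR1 (0.87 to 0.88). The genes most like ACLY were CAMK2G, NOL4L and CUTA, those most like SCD were SIK2, TRIM24 and PTPN14, and those most like ACACB were TFAP2C, LAMA1 and AMACR, at 0.81 to 0.87.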

How the data were processed

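RNA of 26 samples of 3 established lung cancer lines was hybridised to biotin-labelled, single-colour arrays. The deposited values are log2 intensities per probe set; the submitters' processing notes name RMA and Partek, without versions. RMA corrects background, normalizes by quantiles and summarises probes. Whether 1 normalization covered all arrays is not stated in those notes. Values ran from 1.35 to 19.91, wider than RMA usually gives, so scale beyond log2 is uncertain. Detection calls were not used. Symbols came from the platform annotation (17709 of 24351 probe sets with 1 symbol, 6642 with none), and the probe set with the highest mean was kept for each of 17687 genes.

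limma 3.58.1 in R 4.3.3 (lmFit, eBayes) fitted 1 coefficient per group to all 26 arrays, without a block. It compared Omomyc with PBS in each line, these changes between lines, and PBS levels between lines. A call means a Benjamini-Hochberg adjusted p under 0.05 over all genes, and the fit was tested on simulated data. The members and lists were chosen with earlier results of these data known. All members, all genes of the SREBP control list and, of each other list, the called genes with the 3 smallest p per direction are named.

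Runs are clusters of the arrays' sorted values (average linkage), with the number of clusters fixed at 3. No 2 arrays of a group were identical. Same-numbered PBS and Omomyc arrays correlated in their deviations at 0.26 to 0.39 in 5 of 5 H1299 pairs and 0.11 to 0.20 in 3 of 3 A549 pairs. Each of these pairs lay within 1 run, and the run was not removed from the deviations. Pairing by number and a shared run therefore cannot be told apart there. In H1975, where 2 of 4 pairs lay within 1 run, 1 of 4 exceeded 0.1 (-0.20 to 0.33). The number of arrays limits the precision. Alternatives were other scalings, filters, blocks and thresholds, each line or run alone, and leaving out each array.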

Additional observations from a re-analysis of the deposited data

Results flagged for a closer look

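The change with Omomyc differed between the 3 lines for 5 of the 8 fatty acid genes by the limma F test, with adjusted p = 2.38e-05 for ACACA, 9.13e-05 for ELOVL6, 0.00163 for ACSS2, 0.011 for FASN and 0.033 for FADS2. In H1975, A549 and H1299 the changes were -1.39, 0.03 and 0.29 for ACACA, -1.26, 0.30 and 0.67 for ELOVL6, and 0.33, 0.46 and 2.57 for ACSS2. For FASN they were -0.70, -0.04 and 0.78, and for FADS2 -0.62, 0.38 and 0.12. The same test passed for the sterol genes HMGCS1 (adjusted p = 0.00123), LSS (0.00158) and SC5D (0.0252) and for INSIG1 (0.00186).

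A single array stood apart from its group in 2 of 40 gene and group sets of 4 or 5 arrays, about the 1 in 20 that chance gives with Dixon's test. ACLY in Omomyc replicate 1 of H1299 was at 13.82, below the other 4 arrays, which were at 14.05 to 14.11. ACACB in PBS replicate 4 of H1975 was at 4.51, below the other 3, at 5.16 to 5.27, all near background.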

How the results depend on the processing

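No called change of a fatty acid, sterol synthesis or SREBP control gene reversed its direction under any setting tried. Genes of the other lists were refitted only with the run as a block. Of 2336 values recomputed, 64 changed sign, all called in neither setting. The count of fatty acid genes called in H1975, 4 as reported, was 1, 2 and 2 on the arrays of run 1, 2 and 3 alone, 2 with the replicate block and the run together and 2 at an adjusted p under 0.01. In H1299 it was 1 in place of 3 on run 1 or run 2 alone, at an adjusted p under 0.01 and with a fold of at least 2. Line differences were called for 1 in place of 5 genes on run 1 or run 2 alone and for 3 at an adjusted p under 0.01. The sterol count in A549, 5 as reported, was 8 with quantile normalization, 2 in a fit on the line alone, 9 with array weights, 10 with the run as a block, 9 with it as a random block, 8 with the replicate block and the run, 1 and 0 on run 1 and run 2 alone, and 3 at an adjusted p under 0.01. It was 2 in place of 12 in H1299 on run 1 alone. In H1975 run 3 alone called 3 sterol genes, 2 higher and 1 lower (PMVK), in place of 7 higher and 0 lower, and run 1 alone called 4 higher and 2 lower (PMVK and TM7SF2). With the run as a block or a random block 8 were higher and 1 lower (LSS). Under the run block 2 in place of 1 glycerolipid genes fell in H1975, 1 in place of 0 rose in H1299, and 1 in place of 0 supply and regulator genes rose in A549 and in H1299. These single-run fits rest on few arrays. Leaving out 1 array gave 3 to 5 fatty acid genes in H1975, 0 in A549 and 1 to 3 in H1299, 4 to 5 line differences, 8 baseline differences, and 5 to 7, 3 to 6 and 11 to 12 sterol genes in H1975, A549 and H1299. With the replicate block alone, the fatty acid counts were 3, 0 and 3 in H1975, A549 and H1299, where FADS2 in H1975 changed by -0.55 (adjusted p = 0.0527), and 4 line differences were called, without FADS2. In A549 and H1299, where same-numbered arrays shared a run, the block changed no other fatty acid call, and of the sterol genes it called MVD and SQLE in A549 but not DHCR7. Centring each array on its median raised the median change of all genes in H1975 to 0.12, and the share of all called genes that were higher there to 60.2%, against 47.0% as reported. In A549 that share was 66.2% with quantile normalization, 60.4% with the run as a block and 76.8% as reported. Over all genes the run block called 3400, 502 and 2812 genes in H1975, A549 and H1299, against 2095, 211 and 1569 as reported. A fold threshold was not run for the F tests. Values near background, as for ACACB, limit what can be read of dim genes.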
